A study of Liolaemus parthenos with 3 samples.

Results

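Transcripts of transposable elements were compared one by one between 2 RNA libraries of Liolaemus parthenos, a South American lizard that reproduces by parthenogenesis, 1 recorded as ovary and 1 as liver, both from 1 adult. The 2 libraries are those of the 3 in the study that do not come from brain, and all 480 transcripts of their quantification files were taken. Each tissue was kept in RNAlater and frozen, and gave 1 library made from its extracted RNA (TruSeq, not stranded), so reads of an element and of a gene on the opposite strand cannot be told apart. No replicate exists: each difference is one between 2 libraries of a single animal, and intervals cover counting error only.

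The names of these 2 tissues are given the other way round by the sample records and by the file names. The library recorded as ovary has a liver file name and is called the ovary-record library here. The library recorded as liver has an ovary file name and is called the liver-record library. Every direction below rests on the records as the name source, and turns if the file names are taken instead. The files name elements and no genes, so neither tissue could be checked against marker genes.

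Retrotransposons move through an RNA copy that is written back into DNA. Long interspersed elements (LINEs), of which CR1 and L2 are abundant in reptile genomes, encode their own reverse transcriptase, and most of their genomic copies are cut short at the 5′ end. Endogenous retroviruses (ERVs) and other long terminal repeat (LTR) elements carry promoters in their terminal repeats, and DIRS and Ngaro elements, counted with the LTR class by the table of names, use a tyrosine recombinase to integrate. RNA of any of these can come from the promoter of the element or from a longer host transcript that contains a copy, and the deposited values do not separate the 2 sources.

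The ovary-record library held 4651 reads over the 480 transcripts and the liver-record library 10644. Shares below are of these reads. The authors named 19207 transcripts in all, so the shares do not describe all element RNA of a tissue. An estimated read count of at least 0.5 was found for 262 transcripts in the ovary-record library and for 289 in the liver-record library, of which 194 were shared, 68 were found in the ovary-record library alone and 95 in the liver-record library alone. Of those found in 1 library alone, 25 and 33 rested on a single read. At the depth of the ovary-record library, 226.2 transcripts would be found on average in the liver-record library, fewer than the 262 found in the ovary-record library. The reads were concentrated in both: the 6 most abundant transcripts made up 50% of the reads in the ovary-record library and the 5 most abundant did so in the liver-record library. Names of transcripts are given without the word TRINITY that opens each of them, and a component is the set of transcripts whose names differ in the final i number only; the 480 transcripts formed 418 components, 381 of them with 1 transcript and 37 with 2 to 6.

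**Figure D1:**
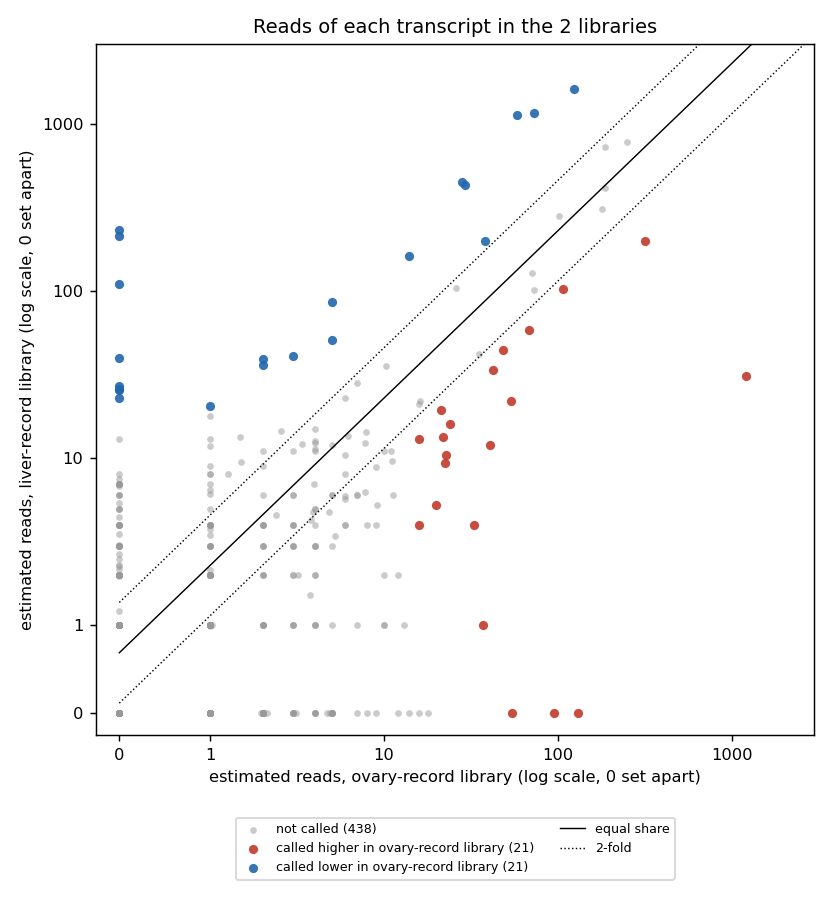
Estimated reads of each of the 480 transcripts in the ovary-record library (x axis, log scale) and in the liver-record library (y axis, log scale), with 0 set apart on both axes. The solid line marks an equal share of reads and the dotted lines a 2-fold difference; the 21 transcripts called higher in the ovary-record library are red, the 21 called lower are blue, and several of each lie at 0 in the other library.

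A transcript was called when its share of reads differed at least 2-fold, both libraries held at least 20 reads of it together, and the exact 95% interval of the ratio lay on 1 side of 1. Of the 480 transcripts, 61 had enough reads, and the other 419 could not be called. In the ovary-record library 21 of the 61 were higher, or 34.4%, and 21 were lower, or 34.4%. The other 19 were called in neither direction, 3 of them with a ratio past 2-fold but an interval that included 1. A transcript with reads in 1 library only can pass the minimum through that library, so these shares describe the 61 and not all 480 transcripts. The called transcripts made up 59.9% of the reads of the ovary-record library and 63.0% of those of the liver-record library. In bulk tissue, a lower share of cells that transcribe an element and less RNA per cell cannot be told apart. A call is a difference in the share of reads, and when 1 transcript takes a larger share the shares of the others are smaller. The median log2 ratio of the 61 was 0.35. The balance of calls differed between scalings: the split was 15 higher and 27 lower with TMM factors, which trim extreme ratios. It was 13 and 28 with factors from the median ratio (median of ratios), 15 and 28 in TPM, the deposited unit that corrects for length, and 28 and 20 when the leading transcript of the ovary-record library was left out of the total. These scalings moved every log2 ratio by -0.68 (TMM), -0.87 (median of ratios) and 0.43 (without the leading transcript). Under all of them and in TPM, 13 of the 21 higher and 20 of the 21 lower transcripts remained called. The balance also depended on the minimum of reads. It was 34 higher and 22 lower with a minimum of 10, 51 and 22 with none, and 11 and 12 with a minimum of 50.

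**Figure D2:**
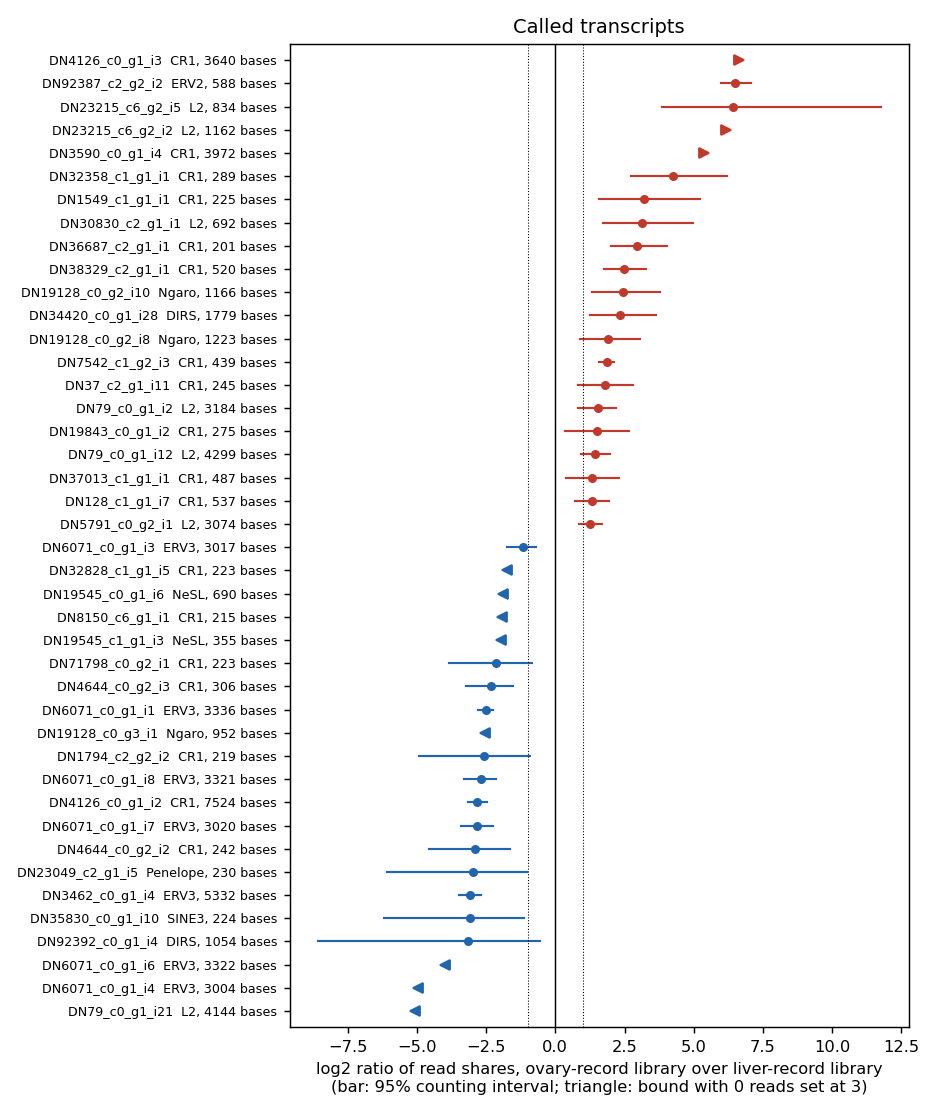
Log2 ratio of read shares, ovary-record over liver-record library, of the 42 called transcripts, ordered by ratio, with element group and length. Bars are exact 95% counting intervals. Triangles are bounds at the floor for transcripts with 0 reads in 1 library (set at 3 reads), not 95% limits. All 7 ERV3 transcripts lie on the lower side while the ERV2 transcript lies near the top.

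The endogenous retroviruses differed strongly between the libraries, in opposite directions for 2 groups. The single ERV2 transcript of the files (DN92387_c2_g2_i2, 588 bases; ERV2 are the betaretrovirus-like elements) had 1214 reads in the ovary-record library and 31 in the liver-record library. Its share was 26.1% against 0.291%, an 89.6-fold difference (95% interval 62.8 to 132). Per length its level was 232156 TPM in the ovary-record library, the highest of all transcripts there, against 4449 TPM. Its counts were whole numbers in both files, and it was alone in its component.

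ERV3, the spumavirus-like group, went the other way with every one of its transcripts. Its 7 transcripts, 3004 to 5332 bases long, came from 2 components, and together they had 277 reads or 5.96% in the ovary-record library and 4136 reads or 38.9% in the liver-record library, 6.52-fold lower in the former (5.78 to 7.40). All 7 had enough reads and all 7 were called lower. The longest, DN3462_c0_g1_i4, had 58 reads in the ovary-record library and 1122 in the liver-record library, an 8.45-fold lower share (6.49 to 11.2). Component DN6071_c0_g1 held the other 6, with 219 reads against 3014, a 6.01-fold lower share (5.24 to 6.93). Its leading transcript i1 had 124 and 1612 reads, which made it the transcript with most reads in the liver-record library. Its transcripts i4 and i6 had 0 reads in the ovary-record library against 213 and 109.5, which is at least 31.0-fold and at least 16.0-fold lower with a floor of 3 reads. Transcript i3 differed least, 2.26-fold lower (1.60 to 3.31), and was no longer called when the leading ERV2 transcript was left out of the total. Among these 6, i3 and i7 (3017 and 3020 bases) and i6 and i8 (3322 and 3321 bases) differ in length by a few bases. Sequences were not compared. If such transcripts share sequence, the split among them is less certain than the sum of the component.

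As a whole the LTR class differed little. LTR elements with DIRS and Ngaro made up 35.3% of reads in the ovary-record library and 41.4% in the liver-record library, 1.17-fold lower (1.11 to 1.24), but higher in TPM (log2 ratio 1.34) and without the leading transcript in the total (0.20), and past 2-fold lower with median-of-ratios factors (-1.10). With ERV2 left out of the class, its share was 9.16% against 41.1%, 4.49-fold lower (4.06 to 4.97). Of 55 LTR transcripts 15 had enough reads, 4 were higher and 9 lower, with a median log2 ratio of -2.51 beside 0.35 over all 61. The endogenous retrovirus list had 1 higher and 7 lower of 8, and a median of -2.75. Component DN6071_c0_g1 gave 6 of the 15 and 6 of the 8, so these counts and medians rest heavily on 1 component. The summed share of the endogenous retrovirus list was 32.1% against 39.1%, 1.22-fold lower (1.15 to 1.30). The log2 ratio of this list was 1.69 in TPM, 0.14 without the leading transcript in the total and -1.16 with median-of-ratios factors.

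DIRS and Ngaro transcripts were mixed. Ngaro had 66 reads (1.42%) in the ovary-record library and 78 (0.733%) in the liver-record library, 1.94-fold higher (1.37 to 2.72) and short of the 2-fold rule. It was past that rule without the leading transcript in the total (log2 ratio 1.39). The log2 ratio was 0.27 with TMM factors, 0.08 with median-of-ratios factors and 0.82 in TPM. Component DN19128_c0_g2 was higher, with 52 against 35 reads (3.40-fold, 2.17 to 5.38), but by less than 2-fold with median-of-ratios factors and in TPM. Its transcripts i10 (22.3 against 9.31 reads) and i8 (22.0 against 13.4 reads) were both called. A Ngaro transcript of a neighbouring name, DN19128_c0_g3_i1 (952 bases), went the other way, with 0 against 40 reads, at least 5.83-fold lower. DIRS had 73 reads (1.57%) against 144 (1.35%), and the interval of its ratio of 1.16 included 1 (0.863 to 1.55). The log2 ratio of DIRS was -0.47 with TMM factors, -0.66 with median-of-ratios factors, -0.45 in TPM and 0.65 without the leading transcript in the total. Within DIRS, DN92392_c0_g1_i4 was lower, with 1 read against 20.6 (8.997-fold, 1.48 to 379). DN34420_c0_g1_i28 was higher, with 22.7 against 10.4 reads (5.001-fold, 2.41 to 12.4). The other transcript of its component, i19, has the same length of 1779 bases, so the division of reads between them is uncertain. Summed, they had 33 against 46 reads (1.64-fold higher, 1.02 to 2.62), short of the 2-fold rule. The log2 ratio of the sum was 0.03 with TMM factors, -0.16 with median-of-ratios factors, -0.01 in TPM and 1.15 without the leading transcript in the total. The list of Gypsy, DIRS and Ngaro together was 1.48-fold higher (1.19 to 1.83), with 3 transcripts higher, 2 lower and 36 of its 43 short of reads, and turned to lower with TMM (log2 ratio -0.12) and median-of-ratios factors (-0.31). Gypsy had 7 reads against 4 and Copia 3 against 14, too few for a call.

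**Figure D3:**
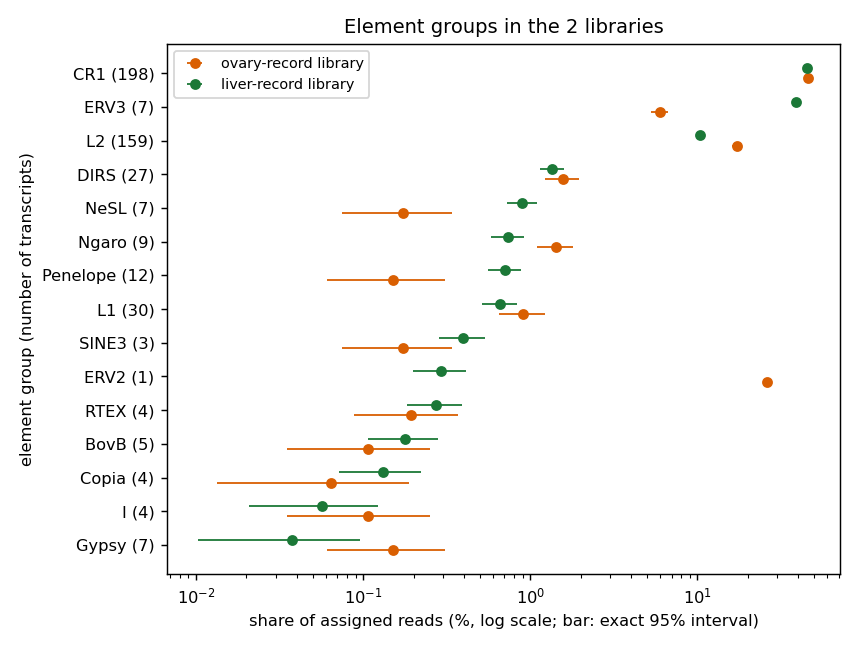
Share of assigned reads (%, log scale) of each element group with at least 11 reads in the 2 libraries together, with exact 95% intervals and the number of transcripts in parentheses. The CR1 points of the libraries nearly coincide at 45.6% and 45.0%, while ERV2 (26.1% against 0.291%) and ERV3 (5.96% against 38.9%) lie far apart in opposite directions.

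CR1, the largest group with 198 transcripts, took nearly the same share of reads in both libraries, and held transcripts called in both directions. It had 2123 reads or 45.6% in the ovary-record library and 4791 or 45.0% in the liver-record library, a ratio of 1.01 (0.963 to 1.07). This near equality holds for shares of all reads: the log2 ratio was -0.66 with TMM factors, -0.85 with median-of-ratios factors, -0.19 in TPM and 0.45 without the leading transcript in the total. Every near-equal share given below moves by the same amounts when the total is scaled otherwise. In TPM the shift differs: component DN79_c0_g1 had a log2 ratio of -0.96, and component DN3590_c0_g1 had 9765 against 17459 TPM. Of the 30 CR1 transcripts with enough reads, 11 were higher and 7 lower. Over all element groups 21 were higher and 21 lower of 61, so calls were not more frequent in CR1. The sum over CR1 transcripts of the smaller of the 2 shares was 57.6% of the group, and 68.8% when transcripts were summed by component, where identical profiles would give 100%. Counting noise in rare transcripts lowers these sums to an unmeasured degree.

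Among CR1 transcripts higher in the ovary-record library, DN7542_c1_g2_i3 (439 bases) carried the most reads, 316 against 199.6, or 6.79% against 1.88% (3.62-fold, 3.02 to 4.34). It was second in TPM in the ovary-record library with 106928, against 43473 in the other, and its ratio fell just short of 2-fold with median-of-ratios factors. DN38329_c2_g1_i1 (520 bases) had 54 against 22 reads (5.62-fold, 3.36 to 9.69) and DN36687_c2_g1_i1 (201 bases) 41 against 12 (7.82-fold, 4.03 to 16.3). DN32358_c1_g1_i1 (289 bases) had 33 reads against 4 (18.9-fold, 6.72 to 73.4), and DN1549_c1_g1_i1 (225 bases) 16 against 4 (9.15-fold, 2.95 to 37.6). Each of the last 4 is alone in its component and has whole counts in both files. DN37_c2_g1_i11 (245 bases, 24 against 16 reads) was among the top in TPM with 19610 against 9320, and its call (3.43-fold) was likewise lost with median-of-ratios factors.

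Among CR1 transcripts lower in the ovary-record library, component DN4644_c0_g2 had 19 reads against 247, a 5.68-fold lower share (3.56 to 9.60). Its transcripts i3 (306 bases, 14 against 161 reads) and i2 (242 bases, 5 against 86 reads) were both called and had the highest TPM of the liver-record library, 65807 and 55521, against 7537 and 4235. DN71798_c0_g2_i1 (223 bases) was also among the highest there with 37361 TPM, on 51 reads against 5 (4.46-fold lower, 1.79 to 14.3). DN1794_c2_g2_i2 (219 bases) had 41 reads against 3 (5.97-fold lower, 1.91 to 30.1). DN8150_c6_g1_i1 and DN32828_c1_g1_i5 had 0 reads in the ovary-record library against 26 and 23.0, at least 3.79-fold and at least 3.35-fold lower. All 6 are under 310 bases, as are 5 of the CR1 transcripts called higher.

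Of the 10 CR1 transcripts of 1000 bases and over, 8 lay in 2 components. Component DN4126_c0_g1 held 577 reads in the ovary-record library and 2306 in the liver-record library, 1.75-fold lower (1.59 to 1.92) and so short of the 2-fold rule. It was past that rule with TMM factors (log2 ratio -1.49), with median-of-ratios factors (-1.68) and in TPM (-1.42). It consists of 2 transcripts of about equal length, i3 and i4 with 3640 and 3643 bases, and 2 more of 7520 and 7524 bases, i5 and i2. Transcript i3 had 130 reads against 0.004, at least 99.2-fold higher with a floor of 3 reads, and i2 had 72.6 against 1167, 7.03-fold lower (5.51 to 8.98). Transcripts i4 (187 against 726 reads) and i5 (187 against 413 reads) were not called on shares of reads, but i4 was past 2-fold lower under those same alternatives. Since each pair differs by 3 or 4 bases, the division of reads within a pair is uncertain. Summed by pair, a grouping made after the values were seen, the shorter transcripts had 317 reads against 726, a ratio of 1.00025 (interval of the difference 0.876 to 1.15), and the longer ones 260 against 1580, 2.66-fold lower (2.33 to 3.04). The longer pair thus took 45.0% of the component's reads in the ovary-record library (40.9 to 49.2) and 68.5% in the liver-record library (66.6 to 70.4), and these intervals do not depend on the scaling between libraries. The other long component, DN3590_c0_g1, with 4 transcripts of 3839 to 3972 bases, had 555 reads against 1211, and its interval included 1 (0.947 to 1.16). Within it i4 had 54.4 reads against 0, at least 41.5-fold higher, and i1 took 44.9% of the component's reads in the ovary-record library (40.7 to 49.1) against 63.8% in the liver-record library (61.1 to 66.5). Transcripts i1 and i5 differ by 1 base in length, and i3 and i4 are close with 3965 and 3972 bases, so these divisions are uncertain too. Summed, i1 and i5 took 57.8% of the component in the ovary-record library (53.4 to 61.8) and 74.4% in the liver-record library (71.8 to 76.8).

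**Figure D4:**
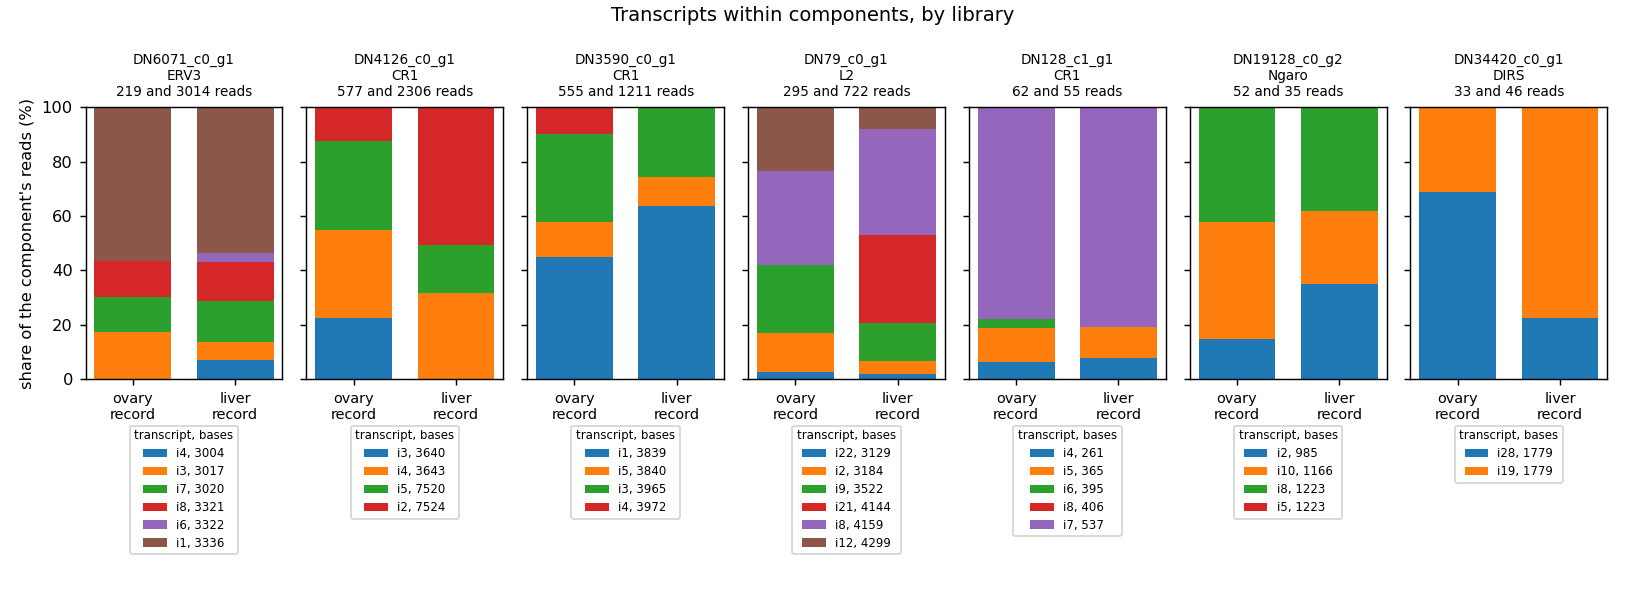
Share of a component's reads (%) taken by each of its transcripts in the 2 libraries, for the 7 components with at least 2 transcripts and 20 reads in each library; the legend under each pair of bars gives the transcript and its length in bases. In DN4126_c0_g1 the leading transcript differs between the libraries, but the 2 leading ones, i5 and i2, are nearly equal in length and their split is uncertain. DN79_c0_g1 lacks transcript i21 in the ovary-record library.

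L2, a LINE related to CR1, leaned to the ovary-record library on shares of reads. Its 159 transcripts had 804 reads or 17.3% there and 1109 or 10.4% in the liver-record library, 1.66-fold higher (1.51 to 1.82). The log2 ratio was 0.05 with TMM factors, 0.19 in TPM and -0.14 with median-of-ratios factors. It was past 2-fold higher without the leading transcript in the total (1.16). Of 11 with enough reads, 6 were higher and 1 lower. Component DN23215_c6_g2 stood out: its transcripts i2 (1162 bases) and i5 (834 bases) had 94.8 and 37.2 reads in the ovary-record library against 0 and 1. Together that is 132 reads against 1, a ratio of 302 whose interval runs from 53.3 to 12021. DN5791_c0_g2_i1 (3074 bases) had 107 reads against 102 (2.38-fold, 1.81 to 3.18), and was called neither with TMM or median-of-ratios factors nor in TPM. DN30830_c2_g1_i1 (692 bases) had 19.9 against 5.26 (8.66-fold, 3.33 to 31.2). Below the minimum for a call, DN46788_c1_g3_i1 had 18 reads and DN59919_c0_g3_i1 16 in the ovary-record library, both against 0. DN92507_c0_g1_i4 (208 bases), the L2 transcript highest in TPM in the ovary-record library, had 16 against 21 reads and 18127 against 19114 TPM, and among the scalings was called higher only without the leading transcript in the total.

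Component DN79_c0_g1, with 6 L2 transcripts of 3129 to 4299 bases, held about the same share in both libraries, with 295 and 722 reads (ratio of the liver-record over the ovary-record share 1.07, 0.933 to 1.23). Its transcripts moved in opposite directions. Transcript i21 had 0 reads in the ovary-record library and 232 in the liver-record library, at least 33.9-fold lower, where it made up 32.2% of the component (28.7 to 35.7). Transcripts i12 (68.6 against 58.2 reads) and i2 (42.5 against 33.5 reads) were 2.70-fold and 2.90-fold higher, and both calls were lost with TMM factors, median-of-ratios factors or TPM. As shares of the component they took 23.3% and 14.4% in the ovary-record library against 8.05% and 4.64% in the liver-record library, with intervals apart. CR1 with L2 as a list had 17 transcripts higher and 8 lower of 41 with enough reads (357 in all), a median log2 ratio of 0.93, and a share of 62.9% against 55.4%. It was 1.14-fold higher (1.09 to 1.19), but lower with TMM and median-of-ratios factors and in TPM.

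NeSL and Penelope, both with few reads, were lower in the ovary-record library. NeSL, a LINE of the R2 group in the table of names, had 8 reads in the ovary-record library against 95, 5.19-fold lower (2.53 to 12.4). Its components DN19545_c0_g1 and DN19545_c1_g1 had 0 reads against 30 and 34, at least 4.37-fold and at least 4.95-fold lower at the floor (exact 95% limits 3.34-fold and 3.81-fold). Their leading transcripts i6 and i3 were called. Penelope elements, which pair a reverse transcriptase with an endonuclease of another type than that of LINEs, had 7 reads against 75, 4.68-fold lower (2.16 to 12.04). Of these, component DN23049_c2_g1 had 2 against 42 (9.18-fold lower, 2.39 to 78.3). The list of RTE elements with BovB and RTEX had 14 reads against 48, a 1.498-fold lower share whose interval included 1 (0.812 to 2.94), and 0 of its 9 transcripts had enough reads. The intervals of its members included 1 too: RTEX had 9 against 29 reads (1.41-fold lower, 0.649 to 3.38), and BovB had 5 against 19 (1.66-fold lower, 0.5997 to 5.69). The list and RTEX were past 2-fold lower, with intervals on 1 side of 1, under both TMM and median-of-ratios factors. BovB met both conditions with median-of-ratios factors only. With TMM factors its log2 ratio was -1.42 but its interval included 1, and in TPM its log2 ratio was -1.61. The RTEX component DN21868_c0_g1 was called lower as a sum, on 3 reads against 23 (3.35-fold, 1.01 to 17.4). That call was lost without the leading transcript in the total, where the interval includes 1. L1 had 42 reads against 70 over 30 transcripts, none with enough reads, and its ratio of 1.37 had an interval that included 1 (0.914 to 2.04). The log2 ratio of L1 was -0.23 with TMM factors, -0.42 with median-of-ratios factors, -1.01 in TPM and 0.89 without the leading transcript in the total. The I element had 5 reads against 6. All LINEs with Penelope took 64.6% against 58.2%, 1.11-fold higher (1.06 to 1.16), but lower with TMM and median-of-ratios factors and in TPM (log2 ratios -0.53, -0.72 and -0.25). Of their 45 transcripts with enough reads 17 were higher and 11 lower, with a median log2 ratio of 0.75.

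Short interspersed elements (SINEs), which depend on the enzymes of LINEs, had 5 transcripts. SINE3, the group derived from 5S ribosomal RNA genes, had 8 reads against 42 over 3 transcripts, 2.29-fold lower (1.06 to 5.66). Without the leading transcript in the total its log2 ratio was -0.77 and the call was lost. Of these, DN35830_c0_g1_i10 (224 bases) had 2 against 39 (8.52-fold lower, 2.21 to 72.8), the only SINE transcript with enough reads. The 2 SINE2 transcripts had 0 reads in both libraries, for which a floor of 3 reads allows shares of up to 0.0645% and 0.0282%.

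By component, 45 of the 418 had enough reads, of which 17 or 37.8% were higher and 14 or 31.1% lower in the ovary-record library. The split was 11 higher and 18 lower under TMM scaling, 8 and 18 under the median of ratios, 10 and 19 in TPM, and 23 and 13 without the leading transcript in the total. Summing brought in components whose single transcripts fell short of a call: the CR1 components DN151313_c0_g1 (16 against 6 reads, 6.10-fold, 2.27 to 19.0), DN276_c4_g2 (14 against 10 reads, 3.20-fold, 1.32 to 8.06) and the L2 component DN22661_c0_g1 (13.6 against 13.98 reads, 2.23-fold, 1.01 to 5.18) were higher. CR1 component DN128_c1_g1, with 61.7 against 55.0 reads (2.57-fold, 1.77 to 3.78), also higher, divided its reads alike in both libraries, with 78.1% and 80.9% on transcript i7. Of these 4, all but DN151313_c0_g1 came under 2-fold in TPM and under both TMM and median-of-ratios scaling. Summing also removed calls: DN4126_c0_g1 and DN79_c0_g1 each held transcripts called in opposite directions, and neither was called as a whole on shares of reads, though DN4126_c0_g1 was called lower with TMM and median-of-ratios factors and in TPM. Of the 42 called transcripts, 24 belong to components with several transcripts and 18 stand alone. Counts in both files were within 0.01 of a whole number for 8 of the 21 higher and 11 of the 21 lower transcripts, so the other calls involve reads that the quantification divided between transcripts.

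Within the 7 components with at least 20 reads in each library, the intervals of a transcript's share of its component did not overlap between the libraries for 15 of 31 transcripts, in 5 components. The leading transcript differed in 3: DN4126_c0_g1 (i5 with 32.5% in the ovary-record library, closely followed by i4 with 32.4%, and i2 with 50.6% in the liver-record library), the DIRS component DN34420_c0_g1 and the Ngaro component DN19128_c0_g2. In DN34420_c0_g1, i28 took 68.9% (51.3 to 84.4) in the ovary-record library and 22.6% (10.9 to 36.4) in the liver-record library, and i19 the rest. Both are 1779 bases long, so their split may not be resolved by the reads. The same holds for i5 and i2 of DN4126_c0_g1, with 7520 and 7524 bases. Summed by pair, the shorter pair of DN4126_c0_g1 led in the ovary-record library with 55.0% and the longer pair in the liver-record library with 68.5%. In DN19128_c0_g2 all intervals overlapped. Shares within a component are tied, since a gain by a transcript lowers those of the others, so the 15 transcripts are not independent.

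The 419 transcripts under the minimum of 20 reads, which carry no call of their own, had 650 reads or 13.98% in the ovary-record library and 866 or 8.14% in the liver-record library. Their summed level was 389111 TPM against 403237. The minimum is set on reads summed over both libraries, so transcripts high in the deeper liver-record library pass it more readily, and no direction is read from these sums. By length, the 34 transcripts of 1000 bases and over held 43.5% of reads in the ovary-record library and 81.0% in the liver-record library. The 186 between 300 and 1000 bases held 46.0% and 11.1%, and 1214 of their 2140 reads in the ovary-record library were those of the ERV2 transcript. The 260 under 300 bases held 10.5% and 7.88%. Of the 34 transcripts of 1000 bases and over, 29 had enough reads, of which 9 were called higher and 10 lower. These proportions are near the 34.4% called in each direction over all lengths. Over the whole files, the smaller of the 2 shares summed to 41.1% by transcript, 48.6% by component and 65.4% by element group, and to 48.4% by transcript with ERV2 left out.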

How the data were processed

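Values of 480 assembled transcripts were taken from 1 quantification file per library of brain, ovary and liver; brain entered no ratio. The authors deposited estimated counts and TPM (reads per base of effective length, summing to 1000000 over these transcripts), per the file headers. Bowtie2 2.3.4.1 appears, with no stated role, among the submitters' processing notes. The assembler, the quantification tool and the repeat annotation: not given in the sources used here. Element names came from the authors' deposited table, which lists 19207 transcripts and named 479 of the 480. The authors' deposited table of estimated counts per subfamily was used for 1 comparison of name sources, and the deposited log2 CPM table was not used here.

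Libraries were assigned through their sample records, which the file names contradict. Shares of all assigned reads were formed, 4651 and 10644 reads, with exact Clopper-Pearson 95% intervals, and ratios with exact conditional binomial 95% intervals on counts rounded to whole reads (Python 3.11.15, scipy 1.17.1). Zero counts took a floor of 3 reads per library, and ratios against them are bounds at that floor. The exact 95% limits of these ratios lie nearer to 1. Reads are not independent molecules, and the division of reads between similar transcripts is not covered, so intervals may be too narrow. A call needed a ratio of at least 2, 20 reads in both libraries together and an interval on 1 side of 1; with 1 library per tissue no test was made. On simulated counts, transcripts left unchanged were often called once others changed the total, so a call stands for a share of reads and not for a level per cell. Alternatives were TMM factors (edgeR 4.0.16, R 4.3.3), median-of-ratios factors, totals without top transcripts, TPM, other minima, folds, intervals and floors, and transcripts of at least 300 bases.

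Named transcripts were the 8 of each library with most reads and the 5 highest in TPM in each among those with at least 20 reads, up to 12 called in each direction by the interval bound nearest to 1, and up to 5 per direction with 0 reads in 1 library. Components named were those called with several transcripts, with opposite calls, or with different leading transcripts; further called transcripts and DN3590_c0_g1 were named after their values were seen. Members, lists and rules were chosen with earlier results of these data known.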

Additional observations from a re-analysis of the deposited data

How the results depend on the processing

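No paired analysis was possible because each tissue has 1 library. Values are for the ovary-record over the liver-record library. Components called higher (17) came to 11 with TMM factors, 8 with median-of-ratios factors, 10 in TPM, 29 with a minimum of 10 reads, 8 with 50, 43 with none, 8 at a fold of 4 and 9 among transcripts of at least 300 bases. Transcripts called higher (21) came to 13 with median-of-ratios factors, 34 with a minimum of 10 reads, 11 with 50, 51 with none and 12 at a fold of 4. Transcripts called lower (21) came to 12, and components called lower (14) to 4, with a minimum of 50 reads, and these components to 7 among transcripts of at least 300 bases. With looser minima the lower calls hardly changed: 22 transcripts and 15 components with a minimum of 10 reads, and the same numbers with none. Fewer transcripts can be called under the stricter limits, and more under the looser ones, by construction. The looser minima added calls mostly on the higher side. For this lean and for the scalings the cause was not tested. The log2 ratio of LINE reads (0.15) was -0.53 with TMM factors, -0.72 with median-of-ratios factors, -0.25 in TPM, 0.58 without the leading transcript in the total and 0.36 without the top transcripts altogether, 6 in number. That of LTR reads (-0.23) was -0.92, -1.10, 1.34, 0.20 and -1.62 under the same settings. The last 2 settings were chosen after the data were seen. The 4 scalings move every ratio by less than the 2-fold that a call needs, so no call could turn its direction under them. In TPM, where that limit does not hold, no called value among 68 named transcripts, components, element groups and lists turned. Values that were not called could turn and some did, as the LINE and LTR ratios above show. For a transcript without reads in the ovary-record library, the exact 95% upper limit of its share is 0.0793%, above the floor of 3 reads.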

Other observations

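Brain, the remaining library of the animal, gave values for the same transcripts that bear on no comparison above. Of the 21 transcripts called higher in the ovary-record library, the brain share lay between the shares of the 2 libraries for 15. It lay above both for 4 and below both for 2. Of the 21 called lower, the numbers were 13, 3 and 5 in the same order. The 15 and the 13 each include 1 transcript with 0 reads in brain and in 1 of the 2 libraries, a tie counted as between. A call needs shares at least 2-fold apart, which by itself makes a brain share between them more likely. No such counts are given for transcripts without a call, so these numbers show no trait of brain. The CR1 transcript DN4126_c0_g1_i3, listed with 0.004 reads in the liver-record library, had 543 reads in brain. The CR1 transcript DN3590_c0_g1_i4, with 54.4 reads in the ovary-record library, had 0 in brain as in the liver-record library, and the ERV3 transcript DN6071_c0_g1_i4, with 213 reads in the liver-record library, had 0 in both others. The CR1 transcripts of DN4644_c0_g2, with 161 and 86 reads in the liver-record library, had 1 read each in brain. The Ngaro transcript DN19128_c0_g2_i5 had 201 reads in brain and 0 in both other libraries. It has the same length as i8, 1223 bases, so the division of reads between them is uncertain. Summed, i5 and i8 had 235 reads in brain, 22.0 in the ovary-record library and 13.4 in the liver-record library. Of the 123 transcripts without reads in the ovary-record and liver-record libraries, 116 had reads in brain. Brain is the deepest library, with 16405 reads against 4651 and 10644. A transcript without reads in these 2 libraries can have them in brain only, so the last count is no trait of brain.

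The subfamily table, whose columns are named Ovary and Liver, was set beside the files under both name sources. Of 15 element groups with reads in both files, 8 had the direction of the table when the files were named by their records and 7 when they were named by their file names. Of the 5 groups called on shares of reads in the files, ERV2, ERV3, NeSL, Penelope and SINE3, 1 (SINE3) had the table's direction by record and the other 4 had it by file name. In the table ERV2 took 0.418% of the Ovary column and 4.003% of the Liver column, and ERV3 0.839% and 0.0421%. The make-up differed widely from that of the files: SINE3 took 77.6% and 84.3% of these columns, and CR1 5.61% and 7.14%. The table holds 1143616 and 1717904 reads in these columns and so is far from the same set of reads, and these values were not used to settle the names.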
